A study of Mus musculus with 24 samples.

Results

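The comparison described here is that of corticosterone-treated mice killed during the ninth hour of the light phase with corticosterone-treated mice killed during the fifth, and it asks which genes of the hippocampus move in treated animals in the later part of their resting period. Its members are the Cy5 channels of the 8 arrays of the later hour and of the 8 arrays of the earlier one, chosen by treatment and hour as labelled, so that 16 of the 48 mice of the series belong to it. All animals were male Swiss-Webster mice, with an age given as 12 weeks. Per the paper, mice of about this age were left to habituate before treatment, so they were older when killed. The treated mice drank water with corticosterone at 100 µg/ml and the carrier hydroxypropyl-β-cyclodextrin at 0.45% through the 12 h of darkness in which mice are active. Each array also carried, in its Cy3 channel, the hippocampal RNA of 1 control mouse killed in the same hour after drinking water with the same carrier and no corticosterone. The RNA of every mouse was hybridized by itself, with no pooling, to an array with probes for the whole mouse genome. Since corticosterone was always labelled with Cy5 and the carrier with Cy3, treatment and dye go together and levels of treated and control mice are not compared. The change between the same hours in the control mice is given beside the treated change, and the difference between the changes was tested.

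Corticosterone is the main glucocorticoid of mice, and its blood level normally peaks around the start of the active phase and is low while the animals rest. It binds the glucocorticoid receptor and the mineralocorticoid receptor, both abundant in the hippocampus, and the bound receptors switch on genes that hold response elements, among them genes whose products dampen the receptor itself. The same tissue runs a circadian clock in which activators drive their own repressors and a set of output genes over the day, so that some transcripts move between these hours in any mouse.

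The tissue label was checked against marker genes. All 15 markers of hippocampal neurons were well above background on all 16 arrays, with *Camk2a* the brightest, and so were all markers of astrocytes, oligodendrocytes, microglia and vascular cells. Among 15 markers of the choroid plexus, which lies beside the hippocampus, 9 were well above background on all 16 arrays and 4 (*Cldn2*, *Kcne2*, *Slc4a5* and *Steap1*) were above background on none of the 16 arrays. Of 10 thalamic markers 8 were well above background on all 16 arrays and 1, *Shox2*, on none, and all 9 markers of the meninges were above it on all. The summed signal of the choroid plexus list lay between 1627 and 2204 at the fifth hour and between 1616 and 3470.2 at the ninth (exact permutation test, two-sided p = 0.902). The highest of these sums belonged to replicate 5 of the ninth hour, where the brightest gene was *Ttr* at 1782, while in each of the other 15 mice it was *Kl*. For the remaining 8 marker lists the sums of the hours overlapped, with two-sided p from the same exact test between 0.158 (blood, brightest gene *Hba-a1*, mean sum 62728 against 53819) and 0.868 (microglia). *Siglech* was the brightest microglial gene in 15 mice, but in replicate 7 of the fifth hour it was at 3286 and *Csf1r* was the brightest. In whole tissue, fewer cells of a type and less RNA per cell cannot be told apart.

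Array by array, the share of spots well above background was 61.0 to 68.6% at the fifth hour and 64.2 to 69.0% at the ninth (exact permutation test, two-sided p = 0.359). The median raw Cy5 intensity was 120.5 to 147 and 121.5 to 144 in the same order (exact permutation p = 0.590). Replicate 7 of the fifth hour had both the lowest share, 61.0%, and the most spots marked as outliers by the scanner software, 276 against a lowest count of 80 and a median of 116 in its hour. The arrays sat on 3 slides that each held both hours, with 2 fifth-hour and 4 ninth-hour arrays on slide 1 and 3 against 2 on slides 2 and 3. Within a slide, the places of the hours differed: only row 2, column 4 was used for both, so that hour and place on the slide cannot be told apart.

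Of 56605 probes tested, 374 (0.661%) passed an adjusted p of 0.05, with 155 higher (0.274%) and 219 lower (0.387%) at the ninth hour, and 5836 had an unadjusted p under 0.05. A gene name could be given to 335 of the 374 probes, which stand for 310 genes. Most of these changes were small. The median log2 fold change was 0.38 among the probes that rose and -0.32 among those that fell, and 5 probes passed a change of 1 in size. In control mice on the same arrays 19 probes (0.0336%) passed the same test between the hours, 7 higher (0.0124%) and 12 lower (0.0212%), and the treated change differed from the control change for 47 probes (0.083%), of which 41 (0.0724%) were more negative in treated mice and 6 (0.0106%) more positive. The plot of all probes shows these changes against signal.

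**Figure D1:**
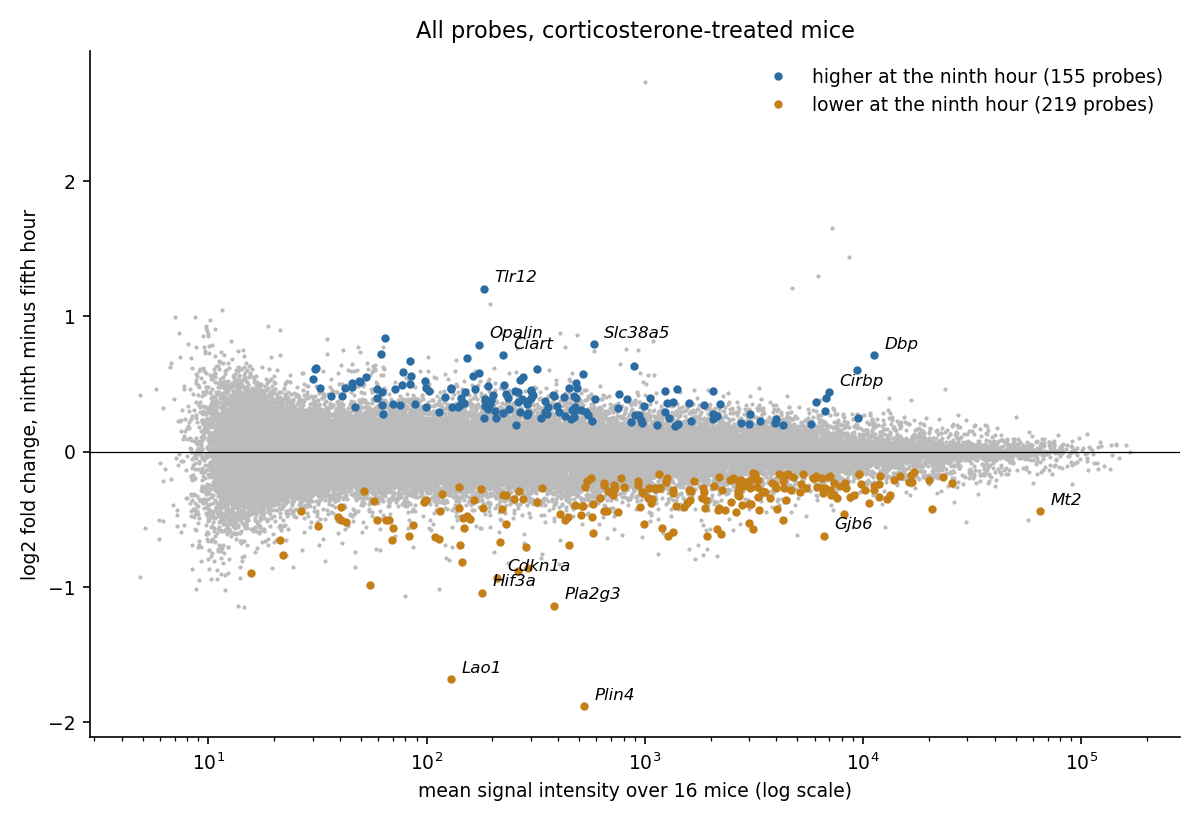
Log2 fold change between the ninth and the fifth hour in treated mice (vertical axis) against mean signal intensity over 16 mice (log scale) for 56605 probes, with 155 probes that were higher in blue, 219 that were lower in orange and all others in grey. *Plin4* and *Lao1* lie lowest, and *Tlr12* is the highest of the coloured probes.

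The counts come from a fit of both channels of all 24 arrays, and with the Cy5 channel of the 16 arrays only 209 probes passed (89 higher, 120 lower). With offset 0 for p values there were 234 (84 and 150). The count also depended on single arrays and slides. Without replicate 4 of the ninth hour 238 probes passed, and without replicate 2 of the fifth hour 518 did. Leaving out replicate 7 of the fifth hour turned the split to 209 higher and 187 lower. Without slide 1, which held 6 of the 16 arrays, 13 probes passed (1 higher, 12 lower), without slide 2 there were 140 (31 and 109) and without slide 3 there were 118 (64 and 54). With slide as a block 292 probes passed, 268 of them among the 374. Among 55 named genes that passed, 53 moved the same way on all 3 slides and 49 still passed with slide as a block, and 18 had hours whose mice did not overlap (7 higher, 11 lower). The 55 were picked for passing on these same arrays, so these counts are raised by the choice of genes. Over all 56605 probes tested 56 were higher and 71 lower without overlap, and 87 of the 374 that passed did not overlap.

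Calls of named genes also depended on which channels and arrays were fitted and on the processing. With the Cy5 channel of the 16 arrays only, which leaves out the control channel and the 8 arrays of the first hour together, 21 of the 55 were lost: *Tlr12*, *Opalin*, *Ciart*, *Klhdc9*, *Rbm3* and *Slc30a1* among those that rose, and *Lao1*, *Pla2g3*, *Hif3a*, *Tmem52*, *Cdkn1a*, *Map3k6*, *Stab2*, *Pdia6*, *Fam107a*, *Gpd1*, *Creld2*, *Timp4*, *Hspb1*, *Dnajc3* and *Sdf2l1* among those that fell. With the Cy5 channel alone and no loess, where channel and normalization change together, *Trim36* and *Stat2* were lost as well, which makes 23. Offset 0 for p values ended the calls of 9 (*Tlr12*, *Ciart*, *Klhdc9*, *Rbm3*, *Slc30a1*, *Hif3a*, *Zbtb16*, *Hspb1* and *Dnajc3*). The processed signals of the scanner software ended those of 6 (*Tlr12*, *Hif3a*, *Fam107a*, *Zbtb16*, *Hspb1* and *Slc30a1*). Median centring of log ratios in place of loess ended the call of *Hif3a*, and moderated tests with an intensity trend that of *Dnajc3*. Without slide 1, 2 or 3 the calls of 53, 17 or 34 named genes were lost.

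Of 56 measured genes of a list of receptors, cochaperones and induced targets, 1 passed as higher and 17 as lower, against 0.274% and 0.387% of all probes. Here and in the other lists each gene is represented by its brightest probe, so the bases are unlike. Of all probes 24540 had a signal under 50, and only 21 of these passed, which lowers the share over all probes. The median log2 fold change of the list was -0.16, beside 0.00 over all probes tested. Its 48 induced targets had a median of -0.22, with -0.37, -0.13 and -0.20 on slides 1, 2 and 3 and -0.21 with slide as a block. In control mice the median of the same 48 genes between the hours was 0.09. The list was drawn up with knowledge of glucocorticoid effects in these data, so its direction supports nothing beyond the single genes.

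*Nr3c1*, the glucocorticoid receptor, had a signal of 4502 to 5872 (median 5052) at the fifth hour and from 5337 to 6307 (median 5701) at the ninth. The hours overlapped, and the log2 change of 0.18 did not pass the test (adjusted p = 0.254). In control mice the change was -0.19, and the difference between treated and control mice did pass, at 0.36 (SE 0.0802, adjusted p = 0.0236). The gene was added to those named because of this difference, as was *Klf9*. The mineralocorticoid receptor *Nr3c2* was at 0.23 (adjusted p = 0.130) and *Hsd11b1*, which regenerates the active hormone, at 0.12 (adjusted p = 0.644). None of the 8 receptors and chaperones passed, and their median was 0.07.

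Among the brakes on the receptor, *Fkbp5*, a cochaperone that lowers its affinity for the hormone, had a median of 3083 at the fifth hour (lowest 2323, highest 3988) and of 2183 at the ninth (lowest 1972, highest 2405). The fifth-hour mice were higher in 7 of 8 cases than any ninth-hour mouse. *Fkbp5* fell by 0.44 in log2 units (SE 0.0952, adjusted p = 0.00776), with -0.77, -0.24 and -0.37 on slides 1, 2 and 3, while control mice changed by 0.14 and the difference was -0.58 (SE 0.115, adjusted p = 0.00803). *Tsc22d3*, which encodes the anti-inflammatory leucine zipper protein GILZ, ranged from 2870.3 to 4532 (median 3787) at the fifth hour and from 2232 to 2816 (median 2512) at the ninth. Here no mouse of the later hour reached the lowest mouse of the earlier one. *Tsc22d3* dropped by 0.57 (SE 0.115, adjusted p = 0.00419) against 0.21 in control mice, a difference of -0.78 (SE 0.139, adjusted p = 0.00238), and its second bright probe moved by -0.57 as well (adjusted p = 0.00283).

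*Zbtb16*, a zinc finger repressor induced by steroid receptors, had a median of 7725 at the fifth hour (lowest 6747, highest 9209) and of 6219.8 at the ninth (lowest 5813, highest 6824). A single fifth-hour mouse lay within the range of the ninth hour. *Zbtb16* fell by 0.32 (SE 0.0796, adjusted p = 0.0258), beside 0.22 in control mice, and the difference was -0.54 (SE 0.0965, adjusted p = 0.00215). Its call was lost without replicate 2 or 7 of the fifth hour or replicate 1 or 4 of the ninth (adjusted p between 0.0506 and 0.0672). Offset 0 for p values and the processed signals of the scanner software ended it too. *Klf9*, a zinc finger factor that relays glucocorticoid signals, had a median of 6154 at the fifth hour (lowest 5669, highest 7365) and of 5701 at the ninth (lowest 5430.0, highest 6415). The hours overlapped, and it did not pass in treated mice at -0.13 (adjusted p = 0.226), while its difference from the control change of 0.13 did, at -0.26 (SE 0.0604, adjusted p = 0.0308).

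Other well-known targets did not pass, which does not show that they stood level. Of the 48 induced targets, with those that passed included, 39 were below 0 and 9 above. *Sgk1*, an ion transport kinase, had a median of 4553 at the fifth hour (lowest 3336, highest 5322) and of 4497 at the ninth (lowest 4240.1, highest 4710.3), and its log2 change of 0.01 (adjusted p = 0.981) took either sign depending on the processing. *Nfkbia*, the inhibitor of NF-kappaB, was at 0.02 (adjusted p = 0.968) and also changed sign with slide as a block. *Dusp1*, a phosphatase of stress kinases, was at -0.09 (adjusted p = 0.829) and *Ddit4*, an inhibitor of the growth kinase mTOR, at -0.12 (adjusted p = 0.610).

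The largest decrease of all was in *Plin4*, a coat protein of lipid droplets. Its signal ran from 351 to 1335 (median 891) at the fifth hour and from 145 to 319 (median 205) at the ninth. All 8 mice of the fifth hour were above all 8 of the ninth, and within the fifth hour the 2 lowest mice, replicates 3 and 4 on slide 2 at 351 and 402, came close to the later group. *Plin4* fell by 1.88 in log2 units (SE 0.222, adjusted p = 1.45e-06), so that the earlier hour was 3.68 times as high, and the change was -2.38, -1.51 and -2.12 on slides 1, 2 and 3. In control mice it was -0.10, and the difference of -1.78 (SE 0.269, adjusted p = 0.000301) passed. The call held in every fit that left out an array or a slide.

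*Pla2g3*, a secreted phospholipase A2, had a median of 449.9 at the fifth hour (lowest 199, highest 1152) and of 237 at the ninth (lowest 104, highest 374). The hours overlapped, with 5 fifth-hour mice above all ninth-hour mice. *Pla2g3* fell by 1.14 (SE 0.248, adjusted p = 0.00776), but on slide 2 it was 0.11 higher, against -1.92 and -1.85 on slides 1 and 3, and the call was lost in both fits of the Cy5 channel. *Mfsd2a*, which carries lysophospholipids with omega-3 fatty acids across the blood-brain barrier, ranged from 1915 to 3273 (median 2593) at the fifth hour and from 1488 to 1904 (median 1746) at the ninth. No mouse of either hour crossed into the other, and the decrease of 0.57 (SE 0.0853, adjusted p = 5.59e-05) differed from 0.04 in control mice by -0.61 (SE 0.103, adjusted p = 0.000998). *Mfsd2a* and *Plin4* were the named genes that still passed without slide 1.

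*Pnpla2*, the lipase that opens the breakdown of stored triglycerides, went from 1982 to 3592 (median 2740.3) at the fifth hour and from 1876 to 2053 (median 1966) at the ninth. All but 1 of the fifth-hour mice were above the later group, and the fall of 0.43 (SE 0.0868, adjusted p = 0.00419) stood beside -0.02 in control mice, with no difference past the threshold (adjusted p = 0.122). *Gpd1*, which makes glycerol 3-phosphate, ran from 11979 to 15198 (median 12588) at the fifth hour and from 9606 to 11888 (median 10882) at the ninth. It did so without overlap and fell by 0.24 (SE 0.0491, adjusted p = 0.00368). On the list of 41 genes of fasting and fat oxidation *Plin4* and *Pnpla2* fell and none rose, against 0.387% and 0.274% of all probes, and the median was -0.05.

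*Gjb6*, connexin 30 of astrocyte gap junctions, had a median of 8125 at the fifth hour (lowest 6382, highest 9278) and of 5237 at the ninth (lowest 4663, highest 5661). The groups were fully apart. It fell by 0.62 (SE 0.0832, adjusted p = 8.82e-06), with -0.86, -0.41 and -0.57 on slides 1, 2 and 3 and -0.60 with slide as a block, and control mice moved by -0.10, a difference of -0.52 (SE 0.101, adjusted p = 0.00583). *Fgfr3*, a growth factor receptor marking astrocytes, ran from 6908 to 9546 (median 8562) at the fifth hour and from 6133 to 7385 (median 6750.2) at the ninth. All but 1 earlier mouse exceeded the later group, and *Fgfr3* fell by 0.34 (SE 0.0647, adjusted p = 0.00176), against 0.02 in control mice and a difference of -0.36 (SE 0.0785, adjusted p = 0.0182). It was the only one of 11 astrocyte markers to pass, against 0.387% of all probes as lower, and the median of the list was -0.05.

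*Glul*, the glutamine synthetase of astrocytes, had a median of 27934 at the fifth hour (lowest 25234, highest 28807) and of 22943 at the ninth (lowest 22259, highest 26987). A single ninth-hour mouse, replicate 5 at 26987, reached into the earlier group and lay far from the others of its hour, and the decrease was -0.23 (SE 0.0548, adjusted p = 0.0142). *Timp4*, an inhibitor of matrix proteases, had a median of 3523 at the fifth hour (lowest 3022, highest 4689.9) and of 2929.6 at the ninth (lowest 2579.8, highest 3229.6). Of the fifth-hour mice 7 were above all later ones, and it fell by 0.33 (SE 0.0621, adjusted p = 0.00128), a call lost in both fits of the Cy5 channel. *Fam107a*, an actin-binding protein that stress induces, had a median of 14615 at the fifth hour (lowest 11565, highest 15829.9) and of 11109.7 at the ninth (lowest 9421, highest 14597). The hours overlapped. *Fam107a* fell by 0.35 (SE 0.0861, adjusted p = 0.0244), and its call was lost without replicate 1, 6 or 7 of the fifth hour or 1, 3 or 4 of the ninth (adjusted p between 0.0507 and 0.0835) and with slide as a block (adjusted p = 0.0597). A second bright *Fam107a* probe was at -0.10 (adjusted p = 0.777).

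*Sult1a1*, a sulfotransferase that inactivates phenols, had a signal of 1883 to 3824 (median 2657) at the fifth hour and from 1359 to 2190.1 (median 1758) at the ninth. Only replicate 3 of the fifth hour, at 1883, fell within the range of the ninth. *Sult1a1* fell by 0.61 (SE 0.124, adjusted p = 0.00365), with -0.84, -0.36 and -0.72 on slides 1, 2 and 3, and by 0.62 at its second probe (adjusted p = 0.000728). Control mice changed by -0.11, and the difference did not pass (adjusted p = 0.234).

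The promoter window of *Sult1a1* is shown because this gene has 2 matches to the conserved part of the glucocorticoid response element. It spans chr7:126676369-126676668 on the minus strand of the build GRCm38.p6, from 250 bases before to 50 after the start that RefSeq gives, is written 5′ to 3′, and its capitals mark TGTTCT or the reverse complement AGAACA. The window also holds 1 match to the D-box letters TTANGTAA, and no marked match overlaps it.
Sult1a1: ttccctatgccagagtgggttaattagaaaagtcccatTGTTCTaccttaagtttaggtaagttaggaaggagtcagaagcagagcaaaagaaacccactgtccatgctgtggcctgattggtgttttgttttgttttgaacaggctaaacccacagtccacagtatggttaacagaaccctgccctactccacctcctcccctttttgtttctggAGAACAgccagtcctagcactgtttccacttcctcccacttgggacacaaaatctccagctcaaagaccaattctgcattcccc
Among the 17 genes of the list that fell, 14 had such a window in RefSeq and 3 of these held TGTTCT on either strand (21.43%: *Fam107a*, *Tsc22d3* and *Sult1a1*), while 21.28% of 27025 genes with a window did. These letters describe the windows and mark no binding site.

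*Cdkn1a*, the cell cycle inhibitor p21, had a median of 231 at the fifth hour (lowest 144, highest 598) and of 131 at the ninth (lowest 105, highest 166). Replicates 1 and 2 of the fifth hour, both on slide 1, were the highest at 598 and 441, and 7 of 8 lay above all ninth-hour mice. The decrease of 0.93 (SE 0.206, adjusted p = 0.0194) was -1.86, -0.44 and -0.91 on slides 1, 2 and 3, and it no longer passed without replicate 1 or 2 of the fifth hour (adjusted p between 0.0506 and 0.0641). *Map3k6*, a kinase upstream of stress-activated kinases, had a median of 306 at the fifth hour (lowest 181, highest 638) and of 167 at the ninth (lowest 134, highest 227). The hours overlapped in 2 fifth-hour mice, and *Map3k6* fell by 0.88 (SE 0.206, adjusted p = 0.0218), a call lost without replicate 1, 2 or 6 of the fifth hour or 8 of the ninth (adjusted p between 0.0512 and 0.0748).

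*Hif3a*, a hypoxia-inducible factor subunit that restrains its relatives, ran from 93.0 to 536 (median 247) at the fifth hour and from 97.7 to 121 (median 106) at the ninth. The later group was narrow, and 7 of the earlier mice exceeded it while replicate 3 lay below it. The change of -1.04 (SE 0.267, adjusted p = 0.0357) was the least firm of the large ones: leaving out any array other than replicates 3 and 4 of the fifth hour and 3 of the ninth ended its call (adjusted p between 0.0546 and 0.108). In control mice *Hif3a* moved by 0.72 (adjusted p = 0.756), and the difference of -1.75 (SE 0.323, adjusted p = 0.00918) passed. *Lao1*, an oxidase of amino acids, had a median of 179 at the fifth hour (lowest 65.4, highest 407) and of 59.4 at the ninth (lowest 26.0, highest 125), with signal above background on 8 arrays of the fifth hour and 6 of the ninth. Its hours overlapped in 2 earlier mice, and it fell by 1.68 (SE 0.303, adjusted p = 0.000804), with -2.60, -1.15 and -1.11 on slides 1, 2 and 3. The call was lost in both fits of the Cy5 channel.

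Metallothioneins are small proteins that bind zinc and copper. *Mt2* had a median of 70765 at the fifth hour (lowest 64884, highest 90443) and of 53392 at the ninth (lowest 47334, highest 64140.3). Every earlier mouse was above every later one, and *Mt2* fell by 0.44 (SE 0.0923, adjusted p = 0.00648). In control mice the log2 change was 0.38 (adjusted p = 0.130), and the difference of -0.82 (SE 0.112, adjusted p = 4.69e-05) passed. *Mt1* ranged from 93519.9 to 106713 (median 97674) at the fifth hour and from 77192 to 91454 (median 82489) at the ninth, again with no overlap. Its change of -0.24 had an adjusted p of 0.0612 and passed with slide as a block (adjusted p = 0.0377), and its difference from the control change of 0.22 was -0.46 (SE 0.0810, adjusted p = 0.00138). The zinc exporter *Slc30a1* had a median of 882 at the fifth hour (lowest 826, highest 1004) and of 1039 at the ninth (lowest 973, highest 1148). Here the hours overlapped, and it rose by 0.21 (SE 0.0523, adjusted p = 0.0221), a call lost with slide as a block (adjusted p = 0.0563) and without replicate 3, 7 or 8 of the fifth hour or 3 or 7 of the ninth (adjusted p between 0.0502 and 0.0776). Of the 6 genes on this list 1 rose and 1 fell, against 0.274% and 0.387% of all probes, and the median was -0.01.

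**Figure D2:**
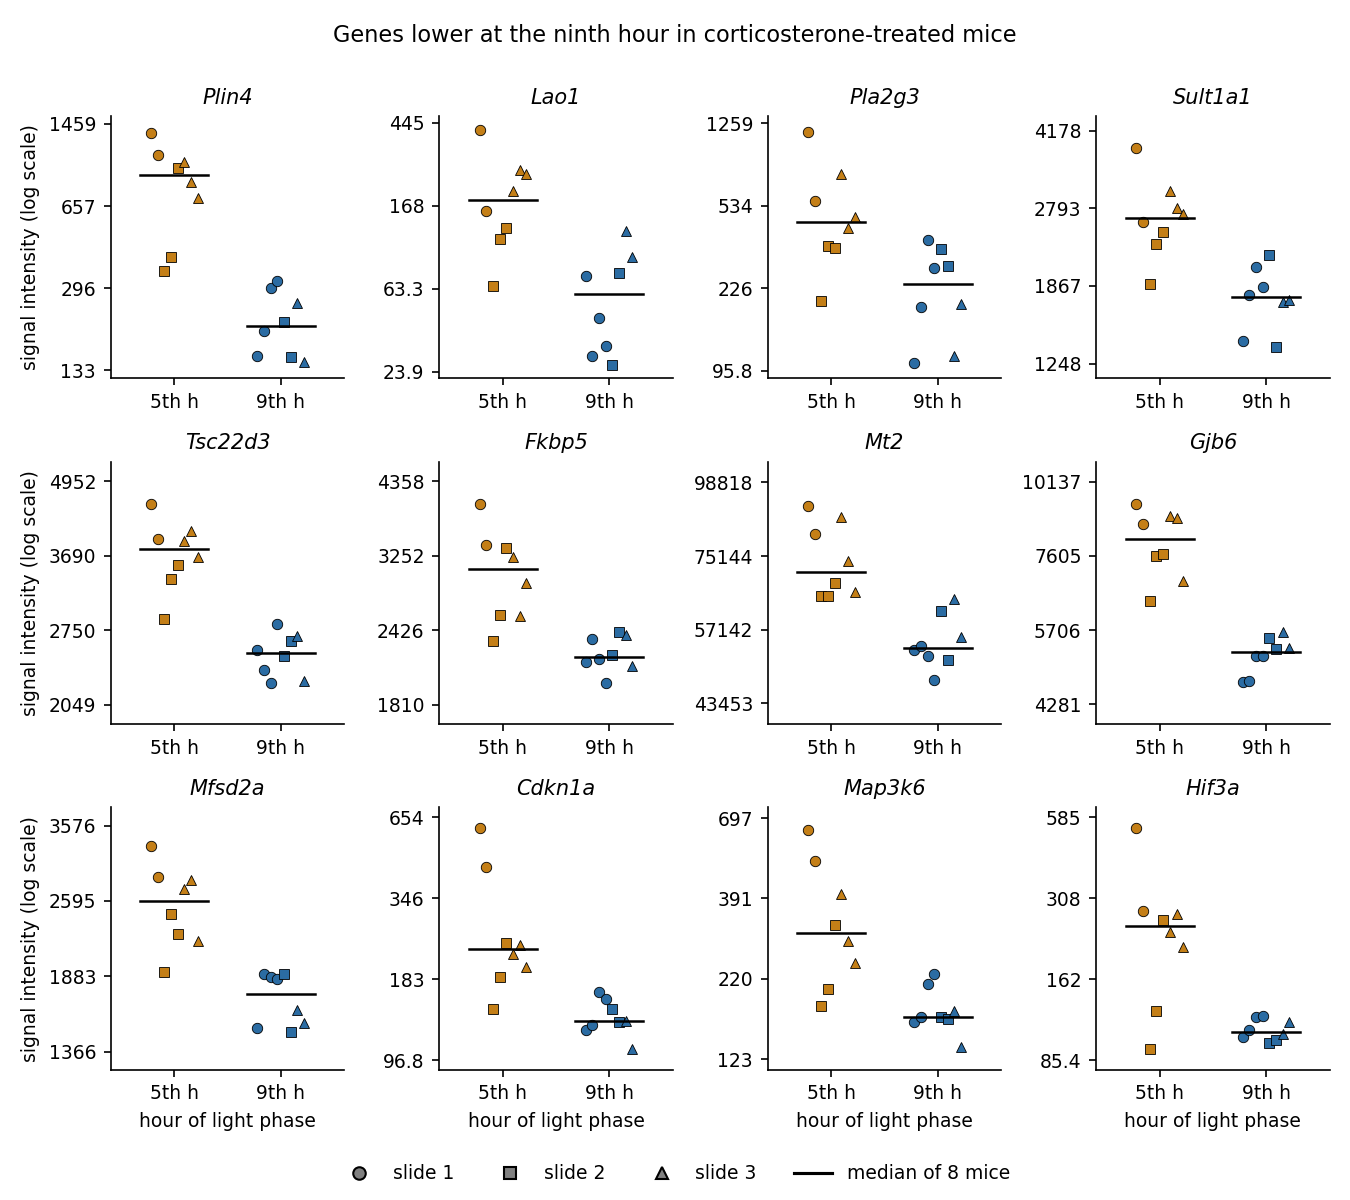
Signal intensity (log scale) of 12 genes that were lower at the ninth hour, with 1 point per treated mouse, shaped by slide, and a line at the median of 8 mice. In *Plin4*, *Tsc22d3*, *Mt2*, *Gjb6* and *Mfsd2a* the hours do not overlap, and slide 2 (squares) holds the lowest fifth-hour mouse in each panel.

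The plot of single mice shows that these genes varied together within the fifth hour. Among the 17 genes of the glucocorticoid list that fell, replicate 1 was the highest mouse of the fifth hour in 15 and replicate 3 the lowest in 15, in *Mt2* tied with replicate 4. Over all 34 named genes that fell these counts were 23 and 24. Within the 17, replicate 2 was the lowest in the other 2 (*Glul* and *Fam107a*), and replicate 7 the highest in the remaining 2 (*Zbtb16* and *Fam107a*). The ninth hour had no such order. In the same 17 genes the highest of its 8 mice was replicate 4 or 5 in 4 each, replicate 3 or 7 in 3 each, replicate 6 in 2 and replicate 8 in 1. Because the genes were measured in the same mice, these counts describe mice and not independent genes. Replicate 1 was on slide 1 and replicate 3 on slide 2, and the within-slide changes were largest on slide 1 and smallest on slide 2 for *Plin4* no less than for *Cdkn1a*.

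A single gene of the list rose. *Fgfrl1*, a fibroblast growth factor receptor that lacks the kinase domain, had a median of 1760.3 at the fifth hour (lowest 1429.9, highest 1994) and of 2359 at the ninth (lowest 2230.1, highest 2601). The hours were fully apart. It rose by 0.45 (SE 0.0768, adjusted p = 0.000529), with 0.69, 0.36 and 0.33 on slides 1, 2 and 3, against -0.07 in control mice, and the difference of 0.52 (SE 0.0931, adjusted p = 0.00219) passed.

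Of 29 measured genes of the stress response of the endoplasmic reticulum none rose and 4 fell, against 0.274% and 0.387% of all probes, and all 4 were among its 15 chaperones and folding enzymes, whose median was -0.17 with 14 of 15 below 0. On slides 1, 2 and 3 the median was -0.07, -0.21 and -0.25, with slide as a block -0.19 and in control mice -0.17. The 14 sensors, transcription factors and degradation genes had a median of 0.02.

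*Sdf2l1*, part of the chaperone complex around BiP, had a median of 533 at the fifth hour (lowest 396, highest 626) and of 357 at the ninth (lowest 309, highest 472). Of the later mice 6 were below all earlier ones, and *Sdf2l1* fell by 0.48 (SE 0.104, adjusted p = 0.00789), beside -0.28 in control mice. *Creld2*, a protein with disulfide exchange activity, went from 2820.5 to 4822 (median 3731) at the fifth hour and from 2623 to 2944 (median 2855) at the ninth. Its later group was narrow, and 7 earlier mice exceeded it, with a decrease of 0.43 (SE 0.0957, adjusted p = 0.0110), largest on slide 2 at -0.62 and smallest on slide 1 at -0.12.

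*Pdia6*, a disulfide isomerase, had a median of 14029.6 at the fifth hour (lowest 12062, highest 17392) and of 11455 at the ninth (lowest 10882, highest 13406). Of the earlier mice 5 exceeded all later ones, and it fell by 0.32 (SE 0.0799, adjusted p = 0.0261). *Dnajc3*, a cochaperone that also inhibits the kinase PERK, ran from 714 to 1062 (median 876) at the fifth hour and from 661 to 852 (median 717) at the ninth. The groups overlapped as well, with a decrease of 0.26 (SE 0.0686, adjusted p = 0.0373). The call of *Pdia6* ended with slide as a block (adjusted p = 0.0581) and without replicate 3, 4 or 7 of the fifth hour or 2, 3, 7 or 8 of the ninth (adjusted p between 0.0538 and 0.0742). That of *Dnajc3* ended without replicate 1, 4, 7 or 8 of the fifth hour or 1, 2, 4, 5, 6 or 8 of the ninth (adjusted p between 0.0533 and 0.0913). None of the 4 folding genes differed from its control change (adjusted p of the difference between 0.475 and 1.00).

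*Hspa5*, which encodes BiP itself, had a low value on a single array. At its brightest probe it had a median of 16492 at the fifth hour (lowest 5458, highest 20270.5) and of 12982 at the ninth (lowest 11715, highest 15713), where the lowest value came from replicate 7 of the fifth hour and the next was 14214. The change of -0.19 did not pass (adjusted p = 0.744) and passed without that array, at -0.39. The control mouse on the same array was low too, at 4566 against 11819.9 or more in the other control mice of its hour. Its other probes moved by -0.43 (adjusted p = 0.0345) and -0.41 (adjusted p = 0.0478).

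Of 22 heat shock genes, 17 were below 0 with a median of -0.12, none rose, and only *Hspb1* fell, against 0.274% and 0.387% of all probes. In control mice the median of this list was -0.11. *Hspb1*, a small heat shock protein, had a median of 3253 at the fifth hour (lowest 2764, highest 4535) and of 2659 at the ninth (lowest 2409, highest 2782). A single earlier mouse lay within the later range, with replicates 3 and 4, both on slide 2, the highest at 4418 and 4535. The decrease of 0.38 (SE 0.0965, adjusted p = 0.02997) was -0.15, -0.60 and -0.32 on slides 1, 2 and 3, and control mice changed by -0.28. The call ended with slide as a block (adjusted p = 0.0687) and without replicate 3, 4 or 7 of the fifth hour or 1, 3, 5 or 7 of the ninth (adjusted p between 0.0550 and 0.108). The inducible *Hspa1b* was at -0.12 (adjusted p = 0.821), with -0.40, 0.28 and -0.42 on slides 1, 2 and 3. Without single arrays it ran from -0.19 to -0.08.

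The promoter window of *Hspb1* is given because it holds 2 matches to the core of the heat shock element, GAANNTTC, which reads the same on both strands and was found in 9.036% of 27025 genes with a window. It spans chr5:135887669-135887968 on the plus strand of GRCm38.p6 (RefSeq) and capitals mark the matches, which overlap no other motif searched.
Hspb1: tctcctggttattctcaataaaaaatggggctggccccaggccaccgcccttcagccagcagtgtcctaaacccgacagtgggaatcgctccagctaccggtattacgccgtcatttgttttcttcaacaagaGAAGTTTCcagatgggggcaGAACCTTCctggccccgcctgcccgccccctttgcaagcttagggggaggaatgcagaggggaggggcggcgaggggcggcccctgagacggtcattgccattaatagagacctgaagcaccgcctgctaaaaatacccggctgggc
No other named gene that fell had this motif in its window.

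Replicate 4 of the fifth hour was the highest among the 4 folding genes and *Hspb1* in 3, and replicates 3 and 7 were in 1 each, while replicate 1 was the highest in none. The lowest mouse of the fifth hour was replicate 2 or 5 in 2 genes each and replicate 6 in 1.

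Among clock genes, *Dbp*, *Ciart* and *Tspan4* rose in treated and also in control mice. *Dbp*, an output factor that binds D-boxes, had a median of 8621 at the fifth hour (lowest 6978, highest 9852) and of 14212 at the ninth (lowest 10786, highest 16064). The hours were fully apart in treated mice, and *Dbp* rose by 0.71 (SE 0.0933, adjusted p = 8.82e-06), with 0.71, 0.65 and 0.66 on slides 1, 2 and 3. In control mice it changed by 0.76 (adjusted p = 2.28e-06), and the difference of -0.05 did not pass (adjusted p = 1.00). Its second probe moved by 0.60 (adjusted p = 8.82e-06).

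*Ciart*, a repressor of the clock activators, ranged from 94.8 to 232 (median 178) at the fifth hour and from 207 to 335 (median 266) at the ninth. All but 1 of the later mice exceeded every earlier one, and *Ciart* rose by 0.71 (SE 0.178, adjusted p = 0.0137) against 0.88 (adjusted p = 0.0115) in control mice. The treated call was lost with offset 0 for p values and in both fits of the Cy5 channel. *Tspan4*, a tetraspanin of cell membranes counted here among clock outputs, had a median of 1622 at the fifth hour (lowest 1347, highest 1914) and of 2132 at the ninth (lowest 1809.5, highest 2232). Again 7 later mice were above all earlier ones, with an increase of 0.35 (SE 0.0778, adjusted p = 0.0106) beside 0.38 (adjusted p = 0.0392) in control mice. The differences for *Ciart* (-0.17) and *Tspan4* (-0.03) did not pass.

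The windows of *Ciart* and *Tspan4* are shown because both hold the E-box CACGTG, the palindromic letters that the clock activators bind. *Ciart* lies on the minus strand at chr3:95882179-95882478 with 3 matches, and *Tspan4* on the plus strand at chr7:141476130-141476429 with 1, in GRCm38.p6 from RefSeq. Capitals mark the matches, and none overlaps another motif searched.
Ciart: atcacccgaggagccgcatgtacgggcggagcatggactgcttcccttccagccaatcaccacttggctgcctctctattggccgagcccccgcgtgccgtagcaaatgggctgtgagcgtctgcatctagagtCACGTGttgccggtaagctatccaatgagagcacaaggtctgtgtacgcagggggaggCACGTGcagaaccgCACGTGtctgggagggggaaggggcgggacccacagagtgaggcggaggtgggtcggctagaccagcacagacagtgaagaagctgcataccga
Tspan4: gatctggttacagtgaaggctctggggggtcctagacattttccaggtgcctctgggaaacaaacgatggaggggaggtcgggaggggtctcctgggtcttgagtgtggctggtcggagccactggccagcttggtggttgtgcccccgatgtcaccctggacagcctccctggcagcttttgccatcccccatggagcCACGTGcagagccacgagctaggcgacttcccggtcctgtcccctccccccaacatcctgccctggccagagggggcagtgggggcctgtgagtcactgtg
Of 14 named genes that rose and have a window, 4 held the E-box (28.57%: *Slc38a5*, *Ciart*, *Fgfrl1* and *Tspan4*), as did 8.093% of 27025 genes with a window. *Dbp* has no window in the table. A match says only that these letters are present.

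Of 22 measured genes of the clock loop only *Ciart* passed, as higher, against 0.274% of all probes, and the median was 0.00. Among 9 clock outputs *Dbp* and *Tspan4* passed as higher and 7 did not pass, with a median of 0.04. *Nr1d1*, the repressor REV-ERB alpha, had a median of 824 at the fifth hour (lowest 570.2, highest 912) and of 1048 at the ninth (lowest 884, highest 1283), and its change of 0.44 missed the threshold (adjusted p = 0.0876), as did 0.17 for *Nr1d2* (adjusted p = 0.175). The activator *Arntl*, also called Bmal1, was at -0.23 (adjusted p = 0.119), with 7 of the later mice below all earlier ones. The period genes did not pass either: *Per1* was at 0.02, *Per2* at -0.11 and *Per3* at -0.26 (adjusted p = 0.951, 0.608 and 0.676). Without replicate 3 of the fifth hour *Per2* was at -0.07, without replicate 3 of the ninth *Per3* was at -0.14, and *Per3* was -0.50, -0.52 and 0.13 on slides 1, 2 and 3. *Per1* rose in control mice by 0.25 (adjusted p = 0.0456), and the difference between treated and control mice did not pass (adjusted p = 0.188).

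*Cirbp* and *Rbm3* encode RNA-binding proteins that increase when body temperature falls, and both rose. *Cirbp* had a median of 6064 at the fifth hour (lowest 4682, highest 6931) and of 8098 at the ninth (lowest 7008, highest 9057). No later mouse was as low as any earlier one, and it rose by 0.44 (SE 0.0872, adjusted p = 0.00319), with 0.25, 0.60 and 0.46 on slides 1, 2 and 3 and 0.30 in control mice. *Rbm3* ran from 4640.1 to 7385 (median 5899.5) at the fifth hour and from 6376 to 9698 (median 7371) at the ninth, with overlap between the hours. It rose by 0.40 (SE 0.101, adjusted p = 0.0341), beside 0.43 in control mice. The call of *Rbm3* ended with slide as a block (adjusted p = 0.0538) and without replicate 3, 4, 5 or 6 of the fifth hour or 2, 3, 4 or 7 of the ninth (adjusted p between 0.0580 and 0.121). For neither gene did treated and control mice differ past the threshold. None of the other probes of these genes passed, and they took both signs: 0.32 and -0.19 for *Cirbp*, and 0.44, 0.38 and -0.28 for *Rbm3*.

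**Figure D3:**
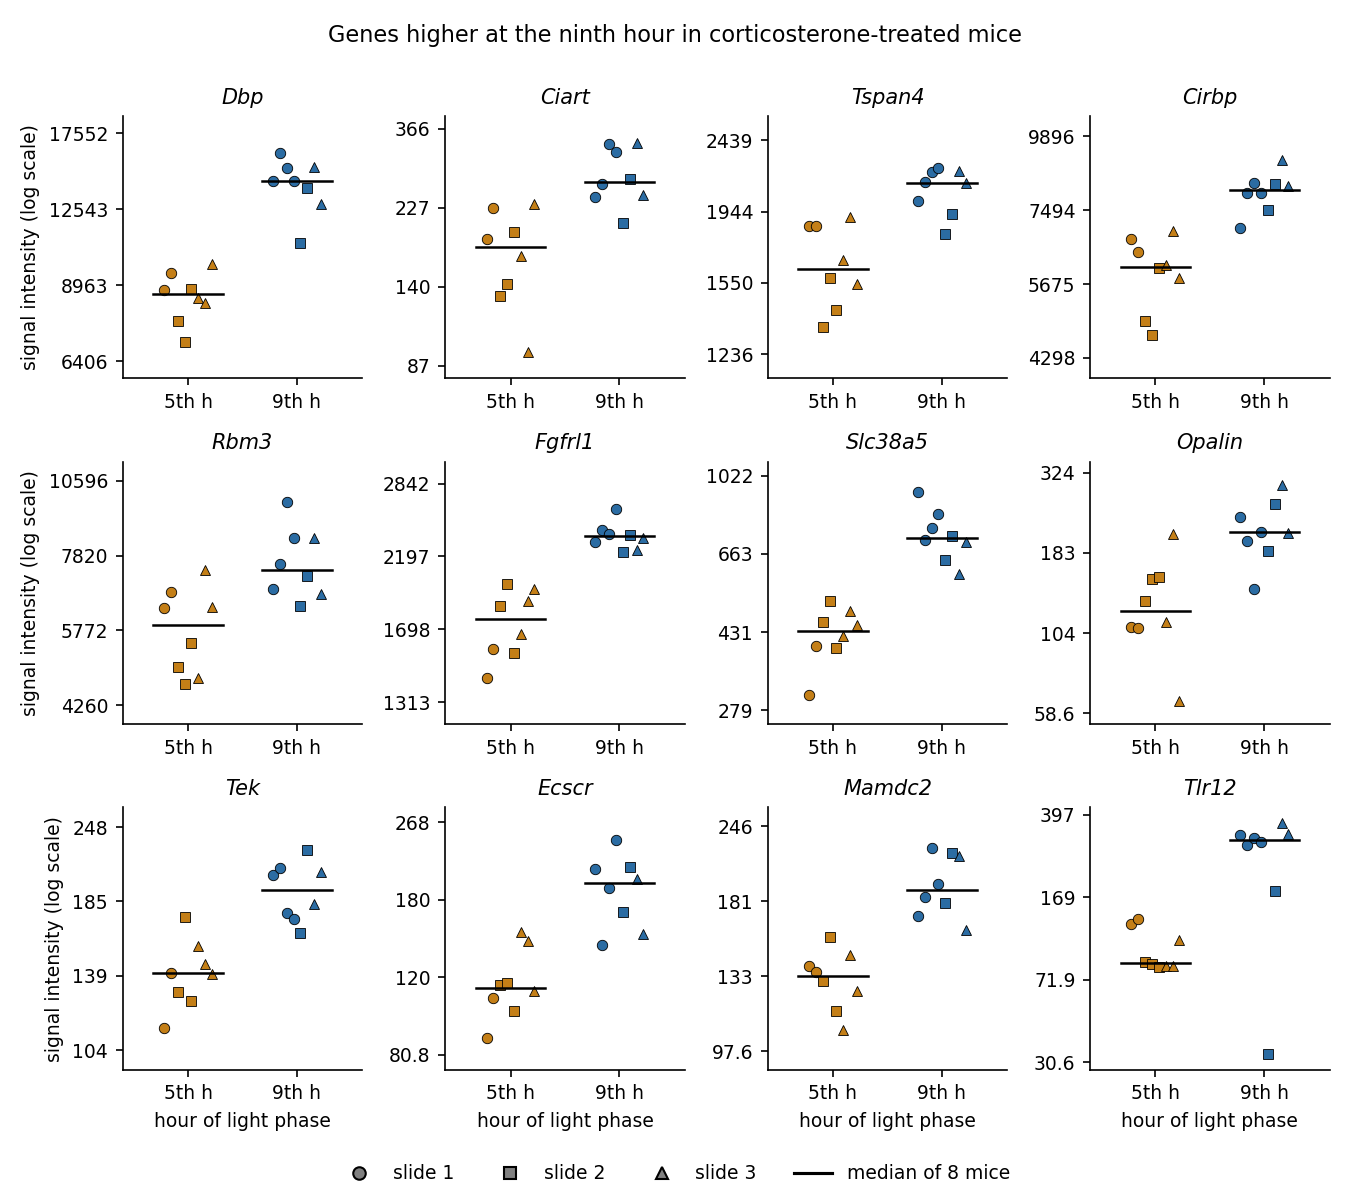
Signal intensity (log scale) of 12 genes that were higher at the ninth hour, with 1 point per treated mouse, shaped by slide, and a line at the median of 8 mice. The hours do not overlap in *Dbp*, *Cirbp*, *Fgfrl1*, *Slc38a5* and *Mamdc2*, and in *Tlr12* a single ninth-hour mouse of slide 2 lies below all others.

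*Slc38a5*, a carrier of glutamine and other neutral amino acids, had a median of 434 at the fifth hour (lowest 304, highest 511) and of 724 at the ninth (lowest 593, highest 936). The hours were apart in all mice, and *Slc38a5* rose by 0.80 (SE 0.183, adjusted p = 0.00967), with 1.21, 0.60 and 0.53 on slides 1, 2 and 3. Control mice changed by 0.13, and the difference of 0.66 did not pass (adjusted p = 0.399). *Tek*, the angiopoietin receptor of endothelial cells, went from 113 to 175 (median 140.1) at the fifth hour and from 164 to 227 (median 194) at the ninth. Of the later mice 6 exceeded all earlier ones, and it rose by 0.46 (SE 0.109, adjusted p = 0.0128). *Ecscr*, a surface protein of endothelial cells, had a median of 114 at the fifth hour (lowest 88.0, highest 152) and of 196 at the ninth (lowest 142, highest 245). It too had 6 later mice above all earlier ones, and it rose by 0.69 (SE 0.107, adjusted p = 0.000134) and by 0.50 at its second probe (adjusted p = 0.00585). *Tek* was the only one of 14 vascular markers to pass, against 0.274% of all probes as higher, and the list had a median of 0.07.

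*Opalin*, a membrane protein of oligodendrocytes, had a median of 121 at the fifth hour (lowest 63.9, highest 209.7) and of 212 at the ninth (lowest 142, highest 296). The hours overlapped, with 5 later mice above all earlier ones, and it rose by 0.79 (SE 0.174, adjusted p = 0.0110), with 0.85, 0.60 and 1.13 on slides 1, 2 and 3. The call was lost in both fits of the Cy5 channel and without each slide in turn. None of the other 11 oligodendrocyte markers passed, among them *Mbp* at -0.10 and *Mag* at 0.18, and the median of the 12 was 0.08. Over all probes 0.274% passed as higher. In control mice *Opalin* changed by 0.10, a difference that did not pass (adjusted p = 0.388). Per the paper, lasting treatment effects on *Opalin* came from a probe for a transcript that keeps an intron. The probe thought to read its canonical transcript did not show them. No other probe carried the name *Opalin* here, and which transcript this probe reads was not tested.

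*Tlr12*, a toll-like receptor, had the largest increase among probes that passed. Its signal ran from 82.5 to 135 (median 85.7) at the fifth hour and from 33.3 to 363 (median 306) at the ninth. In 7 later mice it exceeded every earlier mouse, while replicate 5 of the ninth hour, at 33.3, was below them all. The control mouse on the same array was at 37.04, against 281 or more in the other control mice of that hour. The increase of 1.21 (SE 0.353, adjusted p = 0.0218) was 1.22, -0.12 and 1.93 on slides 1, 2 and 3, and it lost its call without replicate 1, 2, 3, 4, 7 or 8 of the ninth hour (adjusted p between 0.0515 and 0.0663). Replicate 5 was also the lowest ninth-hour mouse in 11 of the 21 named genes that rose.

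*Mamdc2*, a secreted proteoglycan, went from 106 to 156 (median 133) at the fifth hour and from 161 to 226 (median 189) at the ninth with no overlap and rose by 0.56 (SE 0.0995, adjusted p = 0.000850). *Lamb3*, a laminin chain, had a median of 71.2 at the fifth hour (lowest 45.4, highest 81.4) and of 103 at the ninth (lowest 73.6, highest 121). All but 1 later mouse were above the earlier group, where replicate 7 was the lowest, and it rose by 0.56 (SE 0.118, adjusted p = 0.00585).

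*Mboat1*, an acyltransferase of lysophospholipids, ran from 115 to 179.6 (median 135) at the fifth hour and from 172 to 257 (median 194) at the ninth. Of the later mice 6 exceeded all earlier ones, and it rose by 0.58 (SE 0.115, adjusted p = 0.00283). *Serpinb1a*, an inhibitor of neutrophil proteases, ran from 330.4 to 511 (median 419.7) at the fifth hour and from 422 to 806 (median 599.9) at the ninth. A single later mouse lay within the earlier range, and it rose by 0.57 (SE 0.121, adjusted p = 0.00588). In control mice *Mamdc2*, *Lamb3*, *Mboat1* and *Serpinb1a* changed by 0.11, 0.11, 0.02 and 0.04, and none of the differences passed.

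*Trim36*, a ubiquitin ligase, had hours fully apart at a median of 235 at the fifth hour (lowest 128, highest 274) and of 315 at the ninth (lowest 293, highest 404). It rose by 0.55 (SE 0.112, adjusted p = 0.00365), and replicate 7 of the fifth hour was the lowest of its group. *Klhdc9*, a protein with kelch repeats, ran from 270.2 to 948 (median 757) at the fifth hour and from 944 to 1172 (median 1025) at the ninth. The hours overlapped in 1 later mouse, the gene rose by 0.63 (SE 0.163, adjusted p = 0.0350), and replicate 7 of the fifth hour was the lowest here too. The control mouse on that array was also the lowest control mouse of its hour, at 319 for *Klhdc9* (next 752), 167 for *Trim36* (next 237) and 66.1 for *Lamb3* (next 94.9), so these low values were shared by both mice of the array. Its call ended with slide as a block (adjusted p = 0.100) and without replicate 3, 4 or 8 of the fifth hour or any ninth-hour replicate but 5 (adjusted p between 0.0515 and 0.0850).

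The exchange factor gene *Rasgef1c* had a median of 258 at the fifth hour (lowest 173, highest 318) and of 388 at the ninth (lowest 304, highest 454). The hours overlapped, and it rose by 0.61 (SE 0.130, adjusted p = 0.00586). The non-coding *AU023762*, a dim transcript, ran from 41.8 to 86.8 (median 64.6) at the fifth hour and from 89.7 to 116 (median 105) at the ninth. It did not overlap and rose by 0.67 (SE 0.139, adjusted p = 0.00405). The probe listed for *Dynlt2a3*, a dynein light chain gene, is placed by a genomic interval and not by a transcript, and it had a median of 49.1 at the fifth hour (lowest 25.4, highest 57) and of 75.5 at the ninth (lowest 52.0, highest 106). All but 1 later mouse exceeded the earlier ones, and it rose by 0.72 (SE 0.143, adjusted p = 0.00251) with signal above background on 7 arrays of the fifth hour and 8 of the ninth.

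Several genes outside the lists fell. *Kirrel2*, an adhesion molecule of the nephrin family, had a median of 361 at the fifth hour (lowest 196, highest 479.6) and of 211 at the ninth (lowest 180.4, highest 253). All but replicate 3 of the fifth hour, which stood apart at 196 on an array whose control mouse was also the lowest of its group (134, next 173), were above the later mice, and it fell by 0.70 (SE 0.118, adjusted p = 0.000201), differing from 0.05 in control mice by -0.76 (SE 0.142, adjusted p = 0.00307). A second *Kirrel2* probe was at -0.23 (adjusted p = 0.394). *Atp10a*, a flippase of membrane phospholipids, ran from 339 to 839 (median 536) at the fifth hour and from 275 to 406 (median 341) at the ninth. Only replicate 3 among the earlier mice lay within the later range, and *Atp10a* fell by 0.69 (SE 0.157, adjusted p = 0.0128), against 0.32 in control mice and a difference of -1.01 (SE 0.190, adjusted p = 0.00588). *Pdzd2*, a scaffold with PDZ domains, had a median of 1620.4 at the fifth hour (lowest 1176, highest 1849) and of 1003 at the ninth (lowest 836, highest 1097). The hours were fully apart, and it fell by 0.62 (SE 0.0889, adjusted p = 2.29e-05) and differed from -0.14 in control mice by -0.49 (SE 0.108, adjusted p = 0.0291).

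*Tekt4*, a filament protein of cilia, had a median of 249 at the fifth hour (lowest 189, highest 383) and of 168 at the ninth (lowest 135, highest 182), and *Plekhg4*, a protein with a pleckstrin homology domain, had a median of 139 at the fifth hour (lowest 120.1, highest 164) and of 85.6 at the ninth (lowest 76.2, highest 114). In neither did the hours overlap. They fell by 0.67 (SE 0.125, adjusted p = 0.00283) and by 0.65 (SE 0.1501, adjusted p = 0.0104). *Stab2*, a scavenger receptor for hyaluronan, ran from 56.0 to 139 (median 75.9) at the fifth hour and from 43.5 to 63.4 (median 53.8) at the ninth. All but 1 earlier mouse exceeded the later group, and it fell by 0.65 (SE 0.159, adjusted p = 0.0142). A brighter second *Stab2* probe was at -0.19 (adjusted p = 0.516), and the call was lost in both fits of the Cy5 channel.

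*Tmem52*, a membrane protein, had a median of 76.5 at the fifth hour (lowest 37.4, highest 131) and of 33.3 at the ninth (lowest 26.9, highest 44.6). The hours overlapped in 2 earlier mice, and it fell by 0.99 (SE 0.189, adjusted p = 0.00356), with signal above background on 8 fifth-hour and 6 ninth-hour arrays. *Phka1*, a regulatory subunit of phosphorylase kinase and the only gene of 15 of glycogen metabolism to pass, ran from 1033 to 1359 (median 1146) at the fifth hour and from 851 to 1013 (median 912) at the ninth. It had no overlap and fell by 0.34 (SE 0.0678, adjusted p = 0.00320). The glycogen list had a median of 0.02, and over all probes 0.387% passed as lower. At *Sfpq* the probe reads a non-coding transcript of the locus of this splicing factor, with a median of 365 at the fifth hour (lowest 271, highest 529) and of 196 at the ninth (lowest 154, highest 256). Its hours were apart, and it fell by 0.86 (SE 0.159, adjusted p = 0.00251), while 3 further probes gave -0.07, -0.22 (adjusted p = 0.0274) and -0.20.

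Second probes of other named genes did not all pass. Of the 56605 probes 21782 had no name here, so further probes of these genes may be missing. Among those above background that did not, values were at -0.38 for *Atp10a*, -0.42 for *Tmem52*, -0.48 for *Gjb6*, -0.34 for *Fgfr3*, -0.25 for *Zbtb16*, -0.26 for *Gpd1*, 0.44 for *Ciart* and 0.06 for *Stat2* (adjusted p = 0.186, 0.124, 0.0565, 0.0690, 0.324, 0.502, 0.0735 and 0.921). A second probe passed for *Fkbp5* (-0.50), *Map3k6* (-0.82), *Pdzd2* (-0.60), *Glul* (-0.34), *Timp4* (-0.29) and *Lamb3* (0.33), while further probes of *Pdzd2* (-0.28 and -0.19) and *Glul* (-0.23) did not. Probes of *Hif3a* (0.07), *Cdkn1a* (-0.16), *Tsc22d3* (-0.06) and *Atp10a* (-0.27) that were above background on at most 1 array did not pass either, and a dim *Mt1* probe was at 0.18 (adjusted p = 0.715).

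**Figure D4:**
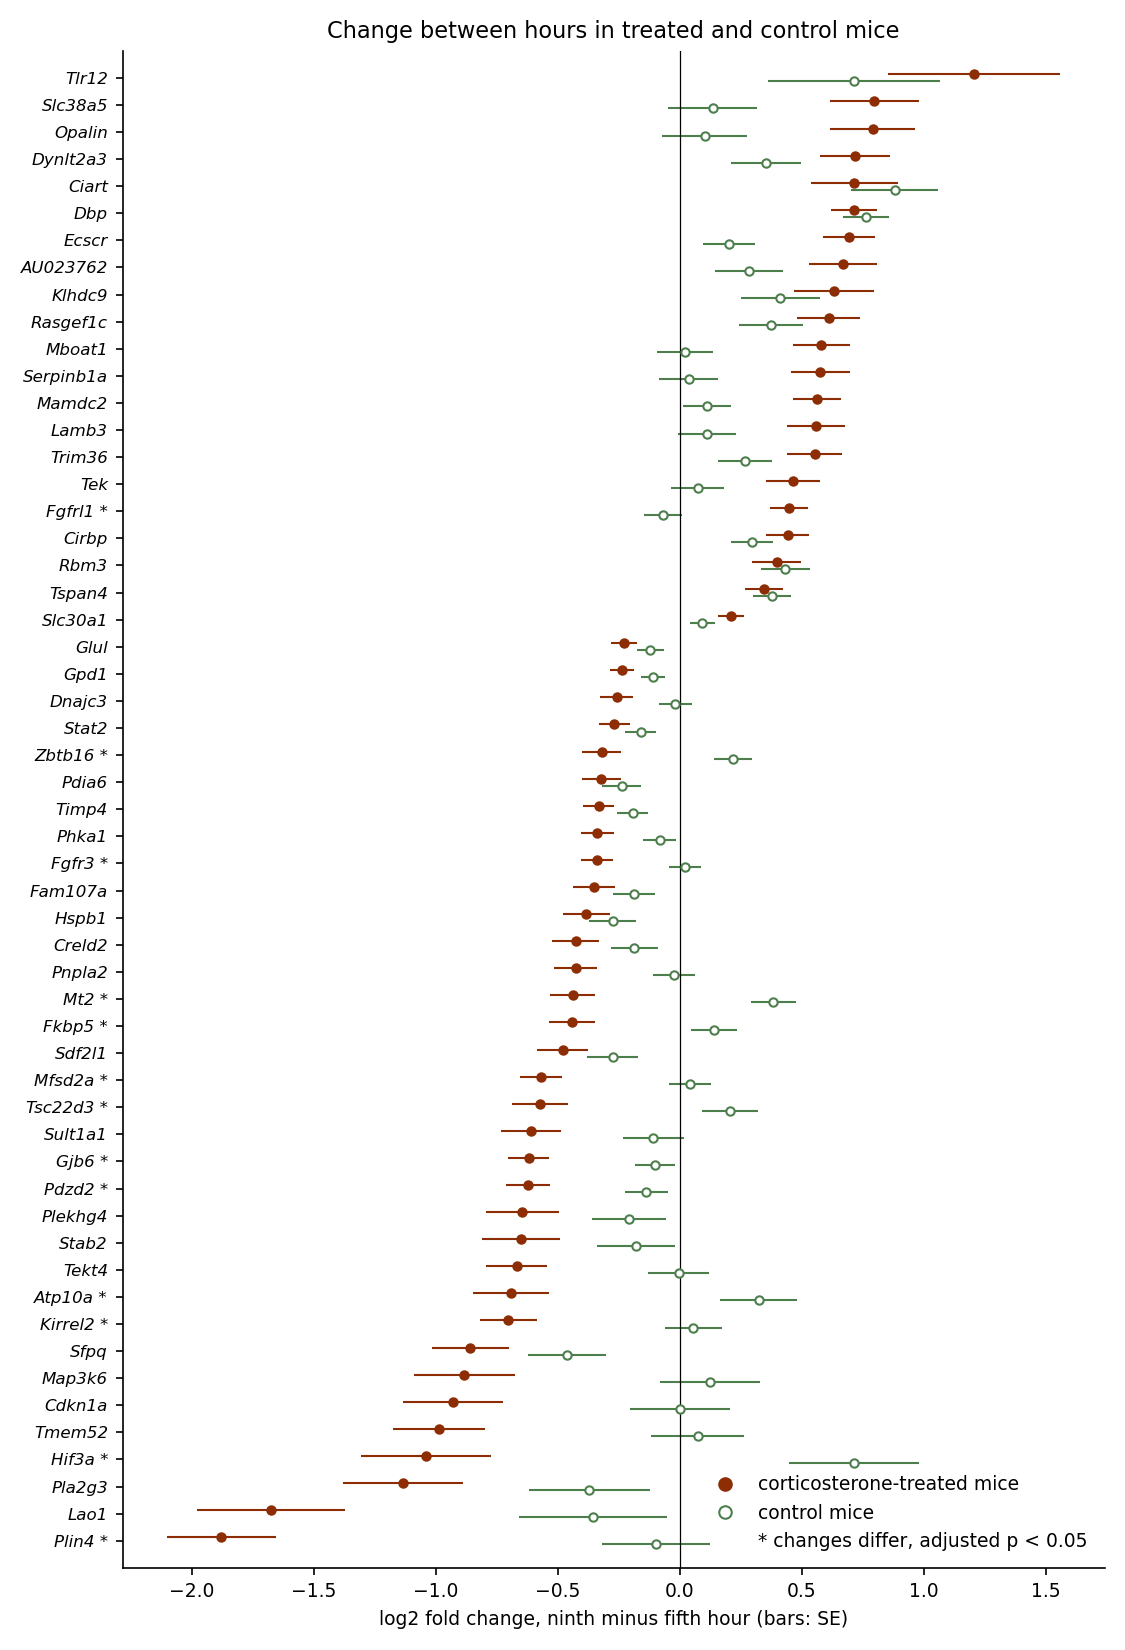
Log2 fold change between the ninth and the fifth hour for 55 named genes that passed in treated mice (filled) and the change of the same genes in control mice (open), with bars for the SE and a star where the 2 changes differed. *Dbp*, *Ciart*, *Tspan4* and *Rbm3* lie together in both, while *Plin4*, *Hif3a* and *Mt2* lie apart.

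The plot of both changes side by side separates genes by what control mice did between the same hours. Among the 70 genes named by rule the treated change differed from the control change for 14, of which 13 were more negative in treated mice and 1, *Fgfrl1*, more positive, against 47 of 56605 probes (0.083%), 41 and 6. Most of these genes were named for their treated change, which is a term of the difference, so these counts are raised by the choice of genes. *Klf9* and *Nr3c1* are not counted here, since they were added after their difference had been seen to pass. Of all 374 probes that passed in treated mice the difference passed for 36, and of the 17 glucocorticoid list genes that fell for 8 (*Plin4*, *Hif3a*, *Mt2*, *Tsc22d3*, *Mfsd2a*, *Fkbp5*, *Zbtb16* and *Gjb6*). Over all probes that rose in treated mice the median control change was 0.13, and over those that fell it was -0.10. Treated and control mice shared arrays, so these values stand side by side and are not separate samples of the same change. Per the paper, the controls of each treated group were its siblings and every group held several litters. Litter was not part of the fit.

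Control changes not given above follow. Among genes that rose they were 0.71 for *Tlr12*, 0.35 for *Dynlt2a3*, 0.20 for *Ecscr*, 0.28 for *AU023762*, 0.41 for *Klhdc9*, 0.37 for *Rasgef1c*, 0.27 for *Trim36*, 0.07 for *Tek* and 0.09 for *Slc30a1*. Among genes that fell they were -0.36 for *Lao1*, -0.37 for *Pla2g3*, 0.07 for *Tmem52*, 0.00 for *Cdkn1a*, 0.12 for *Map3k6*, -0.46 for *Sfpq*, 0.00 for *Tekt4*, -0.18 for *Stab2* and -0.21 for *Plekhg4*. For smaller decreases they were -0.19 for *Creld2*, -0.19 for *Fam107a*, -0.08 for *Phka1*, -0.19 for *Timp4*, -0.24 for *Pdia6*, -0.16 for *Stat2*, -0.02 for *Dnajc3*, -0.11 for *Gpd1* and -0.12 for *Glul*. None of these genes had a difference between treated and control mice that passed.

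Genes that did not pass in treated mice had control changes as well. In the clock list these were 0.38 for *Nr1d1*, 0.20 for *Nr1d2*, -0.27 for *Arntl*, 0.17 for *Per2* and 0.31 for *Per3*. For the others they were 0.32 for *Txnip*, 0.25 for *Nfkbia*, 0.12 for *Sgk1*, -0.03 for *Hspa5*, -0.15 for *Hspa1b*, -0.28 for *Fos*, -0.09 for *Arc* and -0.01 for *Egr1*.

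The remaining lists held few or no calls, beside 0.274% higher and 0.387% lower over all probes. Of 45 immediate early genes, which neurons switch on with activity, none passed and the median was -0.02, with *Fos* at -0.50, *Arc* at -0.30 and *Egr1* at -0.12 (adjusted p = 0.466, 0.499 and 0.719). On slides 1, 2 and 3 *Fos* was at -0.24, -1.21 and 0.06, *Arc* at -0.15, -0.40 and -0.24 and *Egr1* at 0.10, -0.40 and 0.05. Without single arrays *Egr1* ran from -0.20 to -0.08. None of 35 genes of cholesterol and fatty acid synthesis passed (median 0.02), nor any of 23 genes of NF-kappaB and inflammation (median 0.04) or of 18 neuropeptides (median 0.02). The metabolic sensor *Txnip* was at 0.07 (adjusted p = 0.865), and between 0.02 and 0.14 without single arrays. Of 22 interferon genes *Stat2*, a signalling factor of interferon receptors, had a median of 1276 at the fifth hour (lowest 1152, highest 1462) and of 1083 at the ninth (lowest 946, highest 1181). All but 1 earlier mouse exceeded the later group, and it fell by 0.27 (SE 0.0628, adjusted p = 0.0137). The list median was -0.07 and differed by slide, at -0.78, -0.02 and 0.52. No marker of the choroid plexus, thalamus, meninges, blood, microglia or neurons passed, with medians of 0.04, -0.05, 0.22, -0.22, 0.03 and -0.02.

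**Figure D5:**
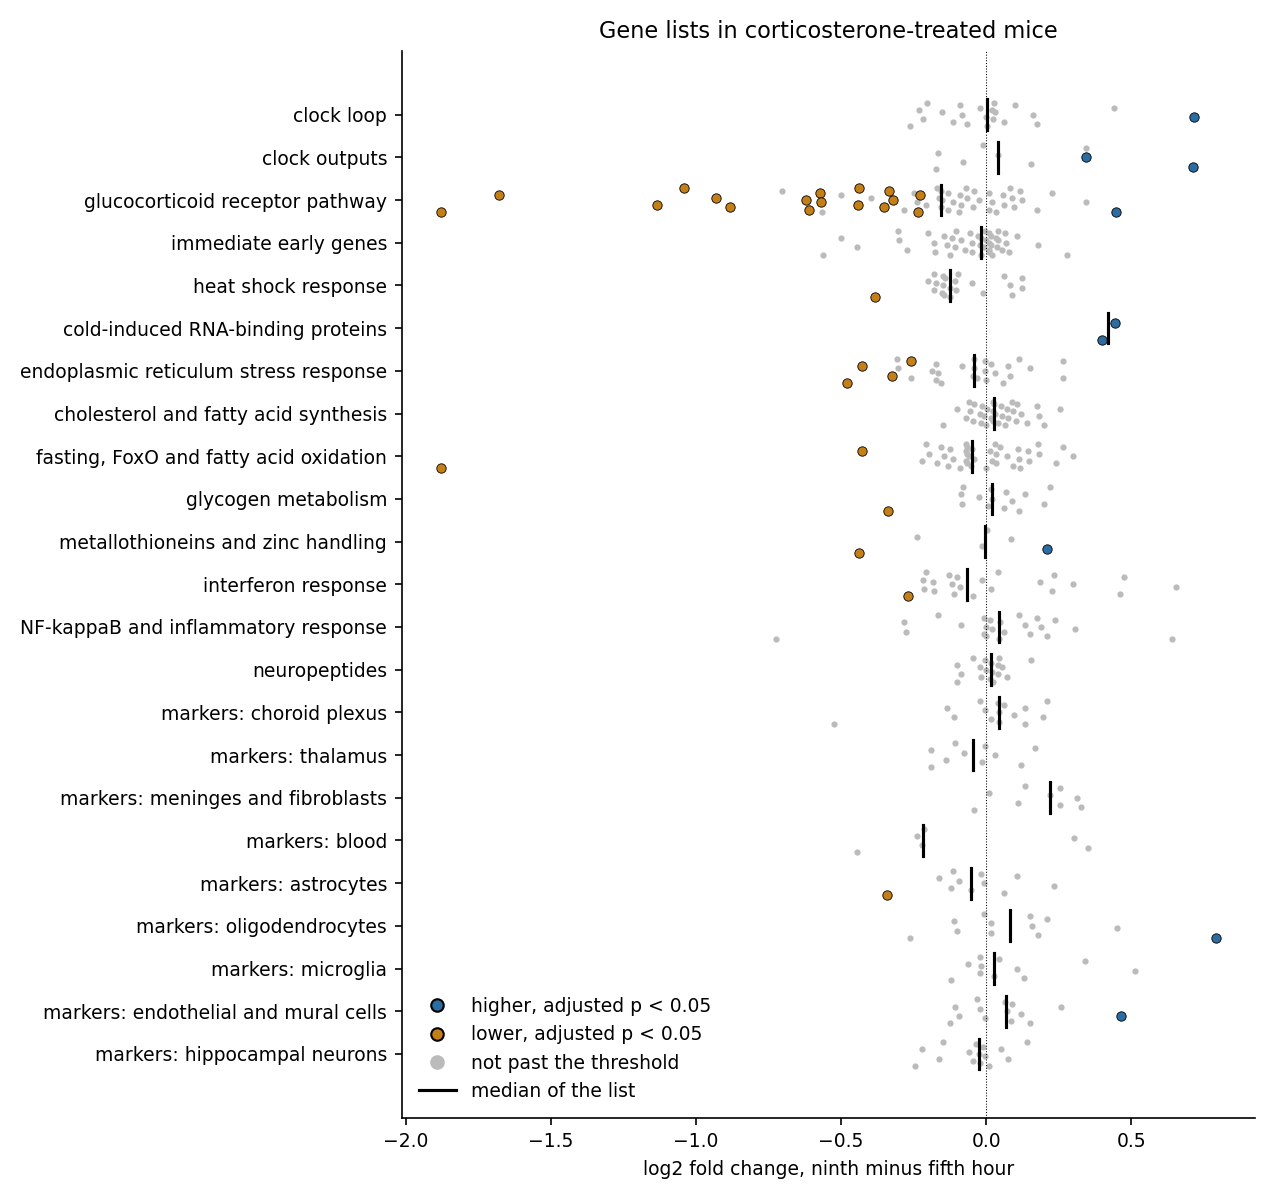
Log2 fold change between the ninth and the fifth hour for each measured gene of 23 lists (1 point per gene), with genes that rose in blue, genes that fell in orange and a bar at the list median. Orange points gather in the glucocorticoid receptor list, whose median is -0.16, and most other medians lie near 0.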

How the data were processed

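Raw red and green intensities of each array, which the authors deposited as scanner text files, were read with their local background; per the file headers the scanner software had extracted the spots and marked outliers before deposit. In R 4.3.3 with limma 3.58.1 and statmod 1.5.0, 3671 control spots of 62976 were removed, spots marked as outliers were set to missing, and background was corrected by normexp, with offset 50 for p values and offset 0 for fold changes and SE. Log ratios were loess-normalized within arrays and signals quantile-normalized between arrays, probes measured on several spots were averaged to 56605, and both channels of all 24 arrays entered a separate channel analysis with moderated tests. Adjusted p is by Benjamini and Hochberg over all probes, with 0.05 as threshold. For 77 probes a value missing on an array was filled with the mean of the other arrays of that hour, and none belongs to a named gene. Array measures were compared by exact permutation over 12870 splits.

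Names were matched for 34566 probes through RefSeq and for 257 through supplementary tables of the study, and 448 of 452 list entries had a probe. Genes were named by rule: the 15 largest changes that passed in each direction at a signal of 50 or more, every gene of a list that passed, and 24 genes always named. *Nr3c1* and *Klf9* were added after their difference from control mice had been seen to pass. *Nr3c2*, *Hsd11b1*, *Dusp1*, *Ddit4*, *Mbp* and *Mag* did not pass, are given as examples outside this rule and are not counted among the named genes. Members and lists were chosen with earlier results of these data known. The fitting and permutation code was first run on test input with known changes and gave estimates close to them. Tables and figures were made with Python 3.11.15 and matplotlib 3.10.9.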

Additional observations from a re-analysis of the deposited data

Results flagged for a closer look

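Of 170 groups of values tested for a mouse far from the rest of its hour, 12 held one, where about 1 in 20 would by chance. *Glul* was high at 26987 in replicate 5 of the ninth hour, *Hspa5* was low at 5458 in replicate 7 of the fifth hour and high at 15713 in replicate 1 of the ninth, and *Kirrel2* was low at 196 in replicate 3 of the fifth. In replicate 7 of the fifth hour *Klhdc9* (270.2), *Lamb3* (45.4) and *Trim36* (128) were low as well, and that array had the most outlier spots, 276. *Tlr12* was low at 33.3 in replicate 5 of the ninth hour, which also had the highest choroid plexus sum, 3470.2. The endothelial and mural sum was high at 28229 in replicate 2 of the ninth hour, and the neuronal sum low at 214684 in replicate 6 of the fifth. For some of these the control mouse on the same array was also the lowest of its group: *Hspa5* 4566, *Klhdc9* 319, *Lamb3* 66.1, *Trim36* 167, *Kirrel2* 134 and *Tlr12* 37.04. No mouse was left out of the reported values.

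The log2 change of treated mice minus that of control mice passed the test for 16 named genes. *Nr3c1* and *Klf9* were added to the named genes after this difference had been seen. The difference was -1.78 for *Plin4*, -1.75 for *Hif3a*, -1.01 for *Atp10a*, -0.82 for *Mt2*, -0.78 for *Tsc22d3* and -0.76 for *Kirrel2*. For *Mfsd2a* it was -0.61, for *Fkbp5* -0.58, for *Zbtb16* -0.54, for *Gjb6* -0.52, for *Pdzd2* -0.49 and for *Mt1* -0.46. *Fgfr3* (-0.36) and *Klf9* (-0.26) had the smallest negative differences, and *Nr3c1* (0.36) and *Fgfrl1* (0.52) positive ones.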

How the results depend on the processing

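The count of 374 probes fell to 234 with offset 0 for p values, to 207 with the Cy5 channel alone and to 209 with the Cy5 channel of the 16 arrays only. Without slide 1, 2 or 3 it was 13, 140 or 118, and without single arrays it ran from 238 (replicate 4 of the ninth hour) to 518 (replicate 2 of the fifth). All other settings kept the count between 292 (slide as a block) and 473 (probes well above background). Among log2 changes near 0, *Hspa5* was 0.00584 and *Egr1* 0.0301 without slide 2, *Per1* was -0.0315 without slide 2 and *Txnip* -0.0191 without slide 1. *Sgk1* was -0.0578 with the processed signals, -0.00981 with slide as a block, -0.0971 without slide 3, and -0.0496 and -0.00419 without replicates 7 and 3 of the fifth hour. *Nfkbia* was -0.0127 with slide as a block, -0.00264 without slide 1, -0.00180 without replicate 8 of the fifth hour and -0.000577 without replicate 2 of the ninth. Both genes were positive without replicate 1 of the fifth hour, *Sgk1* at 0.0467 and *Nfkbia* at 0.0590.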
